A study of Mus musculus with 2 samples.

Results

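Kinesins were followed across effector regulatory T cells of Nrn1+/- and Nrn1-/- mice. They were taken as every protein-coding row whose symbol begins with Kif, which gave 43 of the 21933 protein-coding rows. By their known roles, 14 of the 43 were placed among mitotic kinesins, 17 among transport kinesins and 9 among ciliary and signalling kinesins. Kif2a works in spindles and in interphase and was kept apart. Kifap3 and Kif1bp bear the same prefix but bind kinesins and are not motors themselves.

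The cells came from mice of 2 genotypes on C57BL/6, with 1 library from each. The Nrn1+/- sample is called the control library and the Nrn1-/- sample the null library. Both groups carried Foxp3DTRgfp, a Foxp3 allele that by its name carries a diphtheria toxin receptor and green fluorescent protein, and both were sorted as CD4+CD25+Cd62LlowCD44highFoxp3gfp+. Nrn1 encodes neuritin, a membrane-anchored protein known first from neurons. Although titled as wild type, the control library is heterozygous by its genotype label. The labels name no treatment besides sorting, and give neither the age of the mice nor their number behind each library, so the libraries may be single mice or pools. The targeted gene, Nrn1, stood at 66.5 FPKM (control) against 4.62 FPKM (null), and the 4 regulatory T cell markers Foxp3, Il2ra, Ikzf2 and Ctla4 summed to 1.42e+03 and 1.2e+03 FPKM, each of the 4 lower in the null library. Pairs of values below give the control library first. FPKM counts fragments per kilobase of transcript at a common depth, so levels of different genes can be set side by side within a library.

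Kinesins are motor proteins that use ATP to move along microtubules or to take microtubule ends apart. One part of the family is made mainly as cells approach division, builds the spindle, moves chromosomes and drives cytokinesis. Another part works between divisions, carrying vesicles, mitochondria and signalling complexes, and in T cells such motors act on granules, endosomes and the centrosome at the contact with another cell.

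With 1 library per genotype no difference was tested and no spread between animals can be given. Ratios below are log2((Nrn1-/- + 1)/(Nrn1+/- + 1)), and a gene is said to pass 1.5-fold when this ratio does. Folds quoted without log2 are plain FPKM ratios. The 95% intervals on folds were computed from fragment numbers estimated from the spacing of low FPKM values, and cover counting error only. They leave out differences between mice, sorts and library preparations.

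Of the 14 mitotic kinesins 13 had a mean of at least 1 FPKM, and all 13 passed 1.5-fold in favour of the null library, where 7.01% of the 10695 protein-coding genes at that level did. With Kifc5b, a near copy of Kifc1, left out, 12 passed it. Of the 17 transport kinesins 13 reached that level, none of them past 1.5-fold upward and 1 past it downward, where 3.69% of protein-coding genes lay. The median log2 ratio was 1.08 for the mitotic and -0.19 for the transport kinesins, beside 0.04 for all protein-coding genes. With the pseudocount of 1 FPKM no mitotic log2 ratio overlapped a transport one. The lowest mitotic value was 0.72 (Kif18a and Kif20b) and the highest transport value 0.39 (Kifc3). Among protein-coding genes these values lay at percentiles 96 and 84.7. They were 0.81 and 0.62 with a pseudocount of 0.1 FPKM, and 0.82 and 0.66 with 0.01 FPKM. With a filter at 5 FPKM they were 0.72 and 0.11. The counting interval of the Kifc3 fold, 1.31 to 1.92, covered the plain folds of Kif20b (1.76), Kifc1 (1.82), Kifc5b (1.82) and Kif18a (1.85). Past 2-fold lay 8 of the 13 mitotic kinesins and no transport kinesin, with 1.21% of protein-coding genes past 2-fold higher and 0.262% past 2-fold lower as background.

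**Figure D1:**
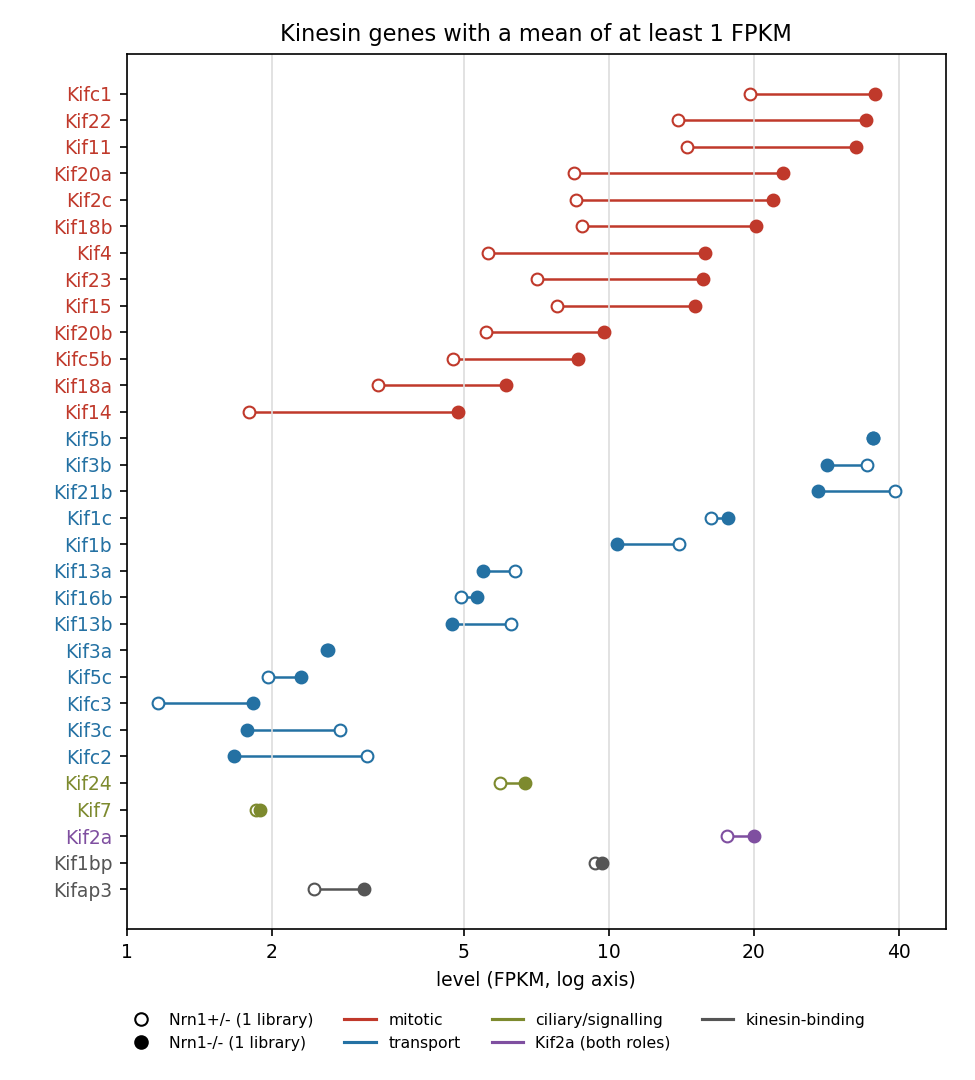
Level in FPKM (log axis) of the 31 kinesin genes whose mean reached 1 FPKM, the control library as open and the null library as filled points, coloured by role. Every red line, the mitotic kinesins, runs to the right, whereas the blue transport lines run both ways and Kif5b at 35.3 and 35.4 FPKM shows as 1 point.

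Promoter sequence, which played no part in choosing the members, was read next. Many genes of the G2 and M phases carry a cell cycle genes homology region (CHR), a short element bound by the DREAM and MuvB complexes, often downstream of CCAAT boxes bound by NF-Y. RefSeq promoter windows on GRCm38.p6, reaching from 250 bases before to 50 bases after the start site, were found for 35 of the 43 genes. None was used for Kif13b, Kif19a, Kif20a, Kif21b, Kif5a, Kif5b, Kifc2 and Kifc3. Of the transport kinesins with a mean of at least 1 FPKM, Kif21b, Kif5b, Kif13b, Kifc2 and Kifc3 thus have no window, while Kif1a, Kif17 and Kif21a, under that mean, have one or more. The mitotic windows leave out Kif20a and include Kif2b, at 0 in both libraries. In neither list are the 13 windows those of the 13 genes compared above. The letters TTTGAA, searched on both strands as the CHR, occurred in 11 of 13 mitotic windows (84.6%) and in 1 of 13 transport windows (7.69%, from 11 genes). Over all 32851 windows of the table the share was 17.9%. CCAAT, likewise on both strands, occurred in 69.2% of mitotic and 30.8% of transport windows, against 37.4% of all windows. Overlapping windows of Kif1b count separately among the transport windows with CCAAT. Both motifs together were held by 8 mitotic windows and no transport window, against 6.95% of all. A match is a run of letters and not a measured binding site.

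Where the matches nearest the start sat is shown for 3 mitotic kinesins with a CHR match before the start site, for the near copies Kifc1 and Kifc5b, and for a pair of transport kinesins as contrast. Each line gives the 150 bases up to the start site, 5′ to 3′ on the gene's strand, and capitals mark TTTGAA or CCAAT on either strand (the other strand reads TTCAAA or ATTGG).
Kif11: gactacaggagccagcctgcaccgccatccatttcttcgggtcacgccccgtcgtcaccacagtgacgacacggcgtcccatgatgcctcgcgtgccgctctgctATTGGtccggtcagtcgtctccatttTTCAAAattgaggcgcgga
Kif15: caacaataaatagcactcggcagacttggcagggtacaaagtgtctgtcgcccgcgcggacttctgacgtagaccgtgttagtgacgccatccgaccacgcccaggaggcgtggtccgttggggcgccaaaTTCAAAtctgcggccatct
Kif22: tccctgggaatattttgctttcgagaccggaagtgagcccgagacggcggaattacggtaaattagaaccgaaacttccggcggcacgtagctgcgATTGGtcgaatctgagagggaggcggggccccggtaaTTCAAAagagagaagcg
Kifc1: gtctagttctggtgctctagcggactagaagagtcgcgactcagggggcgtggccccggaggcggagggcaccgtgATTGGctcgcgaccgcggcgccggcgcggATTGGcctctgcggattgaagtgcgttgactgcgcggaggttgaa
Kifc5b: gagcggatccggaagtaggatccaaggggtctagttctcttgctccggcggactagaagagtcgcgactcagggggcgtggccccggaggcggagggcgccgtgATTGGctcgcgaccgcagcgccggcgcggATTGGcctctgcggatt
Kif3b: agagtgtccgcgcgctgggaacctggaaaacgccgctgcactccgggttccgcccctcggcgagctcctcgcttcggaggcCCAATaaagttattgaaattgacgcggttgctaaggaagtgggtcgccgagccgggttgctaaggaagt
Kif1c: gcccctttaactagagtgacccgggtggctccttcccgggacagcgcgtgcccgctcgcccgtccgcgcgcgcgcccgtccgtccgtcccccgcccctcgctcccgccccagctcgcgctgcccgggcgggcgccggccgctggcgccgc

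These stretches lie at chr19:37376232-37376381 (Kif11, plus strand), chr9:122950931-122951080 (Kif15, plus), chr7:127042421-127042570 (Kif22, minus), chr17:33890634-33890783 (Kifc1, minus), chr17:26916941-26917090 (Kifc5b, plus), chr2:153291266-153291415 (Kif3b, plus) and chr11:70700398-70700547 (Kif1c, plus) of GRCm38.p6 and each ends at the base before the RefSeq start site. By GENCODE the gene starts further upstream for Kif15, Kif22, Kifc1 and Kif3b, by 35, 51, 28 and 3 bases, so the last bases of those lines are annotated there as first exon. In Kif11 and Kif15 the CHR match nearest the start site began 19 bases before it, and in Kif22 17 bases before it. Kif15 and Kif22 each held another, 234 and 215 bases before the start site and outside the printed stretch. Kifc1 and Kifc5b had their CHR match 1 and 29 bases past the start, also outside the printed stretch, with a pair of NF-Y boxes before the start. Within 30 bases of the start on either side, a span chosen after the positions were seen, lay a CHR match in 9 of 13 mitotic windows, in none of the 13 transport windows and in 3.19% of all windows. The near copies Kifc1 and Kifc5b count separately among the mitotic windows with a match. The mitotic windows without TTTGAA were those of Kif18a and Kif2b. For Kif14 and Kif2c the RefSeq start site lay 1505 and 3867 bases inside the GENCODE gene, so their windows may not be the start used in these cells, and the single transport match, in Kif1a, came from a window 19471 bases inside. The transport window of Kif17, without a match, lay 11816 bases inside its gene, and the mitotic window of Kif4 328 bases inside.

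**Figure D2:**
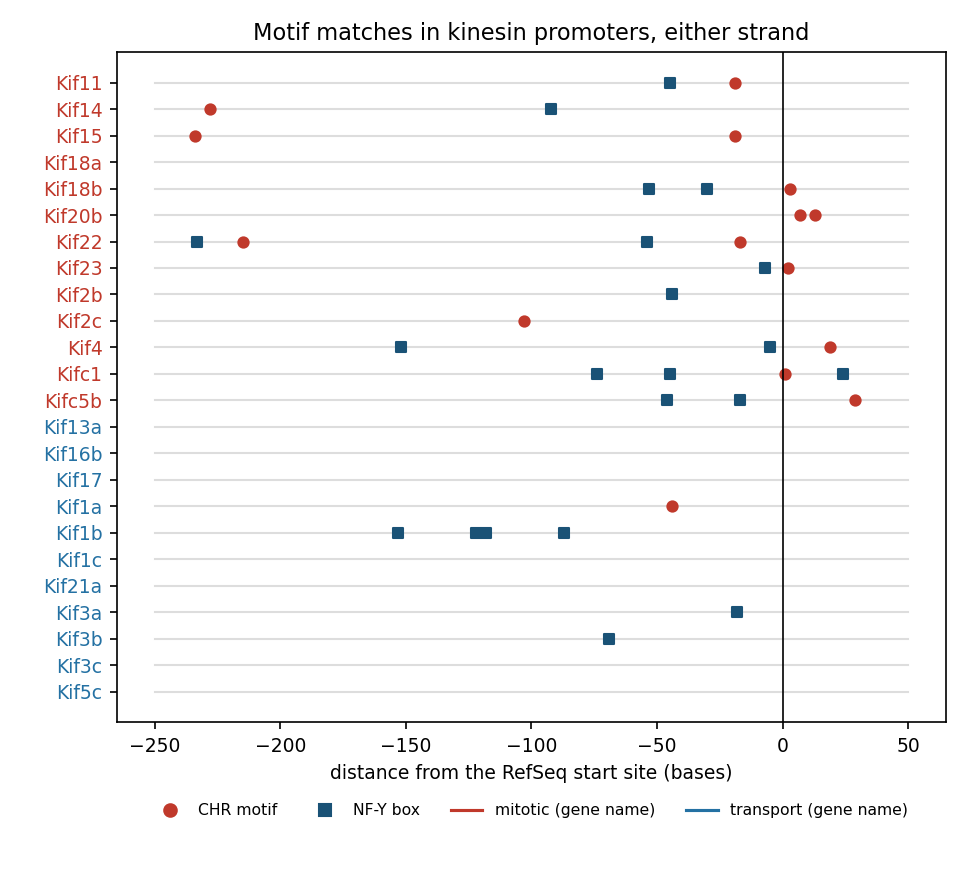
Distance in bases from the RefSeq start site of each CHR match (circles) and NF-Y box (squares), on either strand, for 13 mitotic (red names) and 11 transport (blue names) kinesins. Circles gather near 0 in the mitotic rows, and the only transport circle is that of Kif1a.

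Among the motors that set up the bipolar spindle, Kif11, the plus-end motor Eg5 that pushes spindle poles apart, stood at 14.5 and 32.6 FPKM. That was 2.25-fold higher (95% interval 2.16 to 2.35) on about 3473 and 5990 fragments. Kif15, which can take over the pole-separating work of Kif11, was at 7.82 and 15.1 FPKM, 1.93-fold higher (1.82 to 2.04). Kifc1, the minus-end motor HSET that pulls poles together and bundles microtubules, was at 19.6 and 35.6 FPKM, 1.82-fold higher (1.72 to 1.92). Motors that push poles apart and the motor that pulls them together were thus all higher in the null library. Kifc5b, at 4.75 and 8.64 FPKM, had the same fold of 1.82 (1.64 to 2.02). Kifc5b is not a separate observation, because 40.9% of the 50-base stretches of its longest coding transcript also occur in Kifc1. Reads from those stretches cannot be assigned to one gene. Of the stretches of Kifc1, 45.8% occur in Kifc5b, so the level of Kifc1 is uncertain in the same way.

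Chromosome-moving kinesins formed the next group. Kif22, or Kid, a chromosome-arm motor that pushes chromosomes to the spindle equator, stood at 13.9 and 34.2 FPKM, 2.45-fold higher (2.30 to 2.62). Kif4 (X chromosome, 100625737 to 100727214), a chromokinesin that also limits the length of the central spindle, was at 5.61 and 15.8 FPKM, the largest plain fold among the 31 measured kinesins at 2.81 (2.64 to 3.00). Kif18b, which trims astral microtubules, was at 8.81 and 20.2 FPKM, 2.29-fold higher (2.15 to 2.45). Its relative Kif18a, which damps chromosome oscillations at metaphase, was low at 3.32 and 6.13 FPKM and 1.85-fold higher (1.65 to 2.06). Both Kif18 genes were thus higher in the null library.

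Kinesin-13 proteins do not walk but take apart microtubule ends, and their genes differed in fold. Kif2c, or MCAK, which corrects faulty kinetochore attachments, stood at 8.56 and 21.9 FPKM, 2.55-fold higher (2.38 to 2.74). Kif2a, which acts at spindle poles and also in resting and neuronal cells, was at 17.6 and 20 FPKM, 1.14-fold higher (1.09 to 1.19), with 19.2% of its exonic bases opposite Dimt1 (8.17 and 11.2 FPKM). In the control library Kif2a was thus the higher of the pair, whereas in the null library Kif2c exceeded it. Kif2b was listed at 0 in both libraries.

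The kinesins of the central spindle and cytokinesis made up the last mitotic group. Kif20a, or MKLP2, which brings the chromosomal passenger complex to the midzone, stood at 8.47 and 23.0 FPKM, 2.72-fold higher (2.56 to 2.89). Kif23, or MKLP1, the motor of the centralspindlin complex, was at 7.08 and 15.7 FPKM, 2.21-fold higher (2.06 to 2.38). Kif14, which recruits citron kinase to the midbody, had the lowest level of the 13 at 1.79 and 4.87 FPKM, with a fold of 2.73 (2.51 to 2.97). Kif20b, another cytokinesis motor, was at 5.55 and 9.79 FPKM, 1.76-fold higher (1.65 to 1.88). Across the 13, plain folds ran from 1.76 (Kif20b) to 2.81 (Kif4), and log2 ratios had a standard deviation of 0.23, beside counting errors of 0.03 to 0.08. With 1 library per genotype, whether the mitotic genes differ in fold among themselves was not tested. Fragments of genes on the other strand can enter such values, and 2 mitotic kinesins share at least 10% of their exonic bases with one. Kif20a shares 29.3% of its exonic bases with Cdc23, which stood at 37.4 and 38.0 FPKM, and Kif4 shares 15.1% with Pdzd11, at 23 and 28 FPKM. No source used here says whether counting used strand.

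Transport kinesins were led by 3 genes, Kif21b, Kif5b and Kif3b, which made up 64.5% and 62.7% of the summed transport level. Kif21b, a motor that limits microtubule growth and helps T cells polarise their centrosome (chromosome 1, 136131389 to 136177998), was the highest kinesin of the control library at 39.2 FPKM and stood sixth in the null library at 27.2 FPKM. It was 1.44-fold lower (1.41 to 1.48) and did not pass 1.5-fold. That call turns on scaling, since its log2 ratio of -0.51 was past 1.5-fold lower under each of the 3 other scalings, at -0.62 (upper quartile), -0.80 (equal sum of all rows) and -0.64 (equal sum of protein-coding rows). Kif5b, the ubiquitous heavy chain of kinesin-1, was at 35.3 and 35.4 FPKM, a fold of 1 (0.973 to 1.03). Kif3b, a motor subunit of kinesin-2, was at 34.3 and 28.4 FPKM, 1.21-fold lower (1.17 to 1.25). So the most abundant interphase motors were level or lower in the library where each detected mitotic motor was higher.

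The other kinesin-2 genes were low. Kif3a, the usual partner of Kif3b, stood at 2.62 and 2.60 FPKM, and Kif3c, an alternative subunit, at 2.77 and 1.78 FPKM. Kif3c was 1.55-fold lower as a plain ratio but not past 1.5-fold with the pseudocount, and 35.3% of its exonic bases lie opposite 1110002L01Rik (9.08 and 9.19 FPKM). Kifap3, which joins kinesin-2 to its cargo, was at 2.45 and 3.11 FPKM. Per length, Kif3b was thus far above the other kinesin-2 genes in both libraries.

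Kinesin-3 genes, motors of vesicles, endosomes and mitochondria, lay on both sides of no difference. Kif1b, a mitochondrial and vesicle motor, was at 14 and 10.4 FPKM, 1.35-fold lower (1.30 to 1.40). Kif13b, a motor first found in T cells as a partner of the scaffold DLG1, was at 6.27 and 4.72 FPKM, 1.33-fold lower (1.25 to 1.41). Kif13a, of recycling endosomes, was at 6.40 and 5.49 FPKM, 1.17-fold lower (1.09 to 1.25). In the other direction Kif1c stood at 16.3 and 17.7 FPKM, and Kif16b, a motor of early endosomes, at 4.93 and 5.33 FPKM, both with a fold of 1.08. The values of Kif1c and Kif16b turned negative when the libraries were rescaled to equal sums of all rows or of protein-coding rows. Kif1bp, which binds several kinesins and blocks their hold on microtubules, was at 9.36 and 9.67 FPKM.

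Of the minus-end motors outside mitosis, Kifc2 was the 1 transport kinesin past 1.5-fold lower, at 3.15 and 1.67 FPKM, 1.89-fold lower (1.60 to 2.23). Kifc3, a motor of Golgi and apical vesicles, ran the other way at 1.16 and 1.83 FPKM, a plain fold of 1.58 (1.31 to 1.92). Its log2 ratio of 0.39 with the pseudocount stayed under 1.5-fold. Both rested on few fragments, about 494 and 200 for Kifc2 and about 191 and 232 for Kifc3. Kif5c, a kinesin-1 heavy chain best known from neurons, was at 1.96 and 2.3 FPKM.

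Among ciliary and signalling kinesins, Kif24, which acts on centrioles and holds back cilium formation, stood at 5.96 and 6.69 FPKM, and Kif7, of the Hedgehog pathway, at 1.85 and 1.89 FPKM. In all, 31 of the 43 genes passed the level of 1 FPKM, the lowest being Kifc3 with a mean of 1.49 FPKM. The 12 below it reached at most 0.483 FPKM in a library, and Kif9 (mean 0.438), Kif5a (0.204) and Kif19a (0.202) were the highest of them. Of these 12, Kif6 and Kif2b were listed at 0 in both libraries. Kif1a, the neuronal vesicle motor, was listed at 0 in the control library and at 0.00874 FPKM, about 3 fragments, in the null library. For 8 of the 12 at most 6 fragments were estimated in either library. The counting interval of the plain fold left out 1 for 2 of the 12, named after their values were seen: Kif19a (0.298 and 0.105 FPKM, about 50 and 13 fragments) and Kif26b (0.0808 and 0.13 FPKM, about 57 and 70 fragments).

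Because FPKM is per length, kinesin levels could also be summed within each library, a figure that no scaling between libraries can alter when taken as a ratio. Mitotic kinesins summed to 110 FPKM in the Nrn1+/- and 243 FPKM in the null library, transport kinesins to 169 and 145 FPKM. The mitotic share of all kinesin FPKM was 34.7% and 56.6%. Mitotic over transport was 0.651 and 1.68, a 2.58-fold difference between the ratios. The order of single genes differed with it: Kif21b, Kif5b and Kif3b took the top 3 places of 43 in the control library, whereas Kifc1, Kif5b and Kif22 did so in the null library. There Kifc1, whose reads are partly shared with Kifc5b, stood at 35.6 FPKM and Kif5b at 35.4 FPKM, so their order is uncertain. In bulk samples, more dividing cells and more transcript per dividing cell cannot be told apart.

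**Figure D3:**
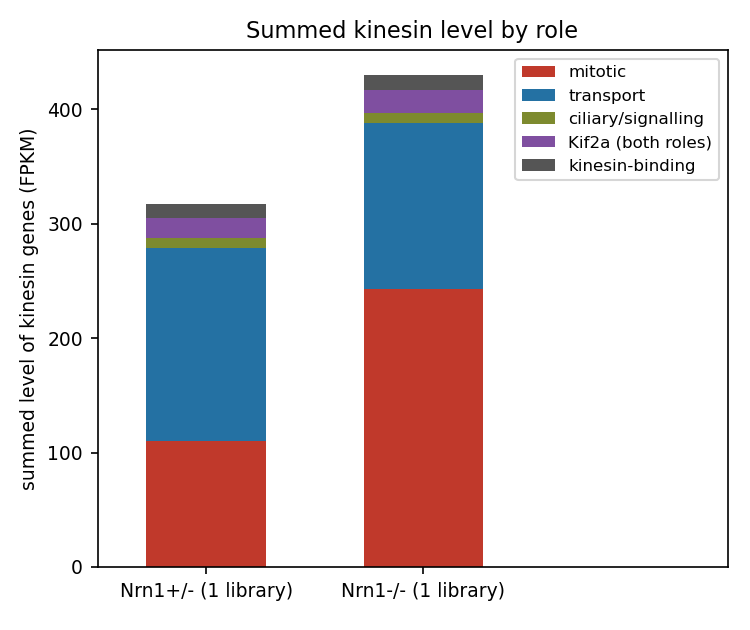
Summed level in FPKM of the 43 kinesin genes in each library, stacked by role from 0. The mitotic part, at the bottom, goes from 110 to 243 FPKM while the transport part goes from 169 to 145 FPKM.

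Genes that work with the kinesins were drawn from 5 lists chosen by function. Of 18 partners of mitotic kinesins, 16 passed 1.5-fold upward and none downward, against 7.01% and 3.69% of protein-coding genes. Their median log2 ratio was 1.02, beside 0.04 for all protein-coding genes. Cenpe, the kinetochore motor of the kinesin-7 class that lacks the Kif prefix, was at 5.40 and 11.7 FPKM, 2.16-fold higher. The largest log2 ratios were those of Birc5, the survivin subunit of the chromosomal passenger complex (36.1 and 96.7 FPKM), Aurka, the spindle-pole kinase Aurora A (13.8 and 37.3 FPKM), and Tpx2, its activator (15.3 and 37.9 FPKM). The 2 partners not past 1.5-fold, named after their values were seen, were Numa1 (70.3 and 59.3 FPKM) and Mapre1 (60.1 and 70.7 FPKM), a nuclear matrix and spindle-pole protein and a general binder of microtubule plus ends.

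DNA replication genes, which act before mitosis, had 15 of 16 members at least 1.5-fold higher against 7.01% of protein-coding genes, and a median log2 ratio of 0.92. Rrm2 (65.2 and 167 FPKM), Cdc6 (10.8 and 26.9 FPKM) and Tyms (70.5 and 145 FPKM), genes of nucleotide supply and origin licensing, had the largest ratios, and Mcm6 (114 and 171 FPKM), named after its value was seen, was the one under 1.5-fold. The division marker Mki67 was at 26.6 and 53.8 FPKM, 2.02-fold higher, within the range of the mitotic kinesins. The dividing-cell markers Mki67, Top2a and Pcna summed to 334 and 606 FPKM, all 3 higher in the null library, and the part of a different share of dividing cells in the kinesin values was not tested.

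Tubulins form the track of all kinesins, apart from Tubg1, the gamma-tubulin that nucleates it. Of 11 measured, 6 with Tubg1 among them (24.2 and 41.8 FPKM) were at least 1.5-fold higher and 1 lower, against 7.01% and 3.69% of protein-coding genes, with a median log2 ratio of 0.67. Tuba1b (256 and 585 FPKM), Tubb4b (133 and 234 FPKM) and Tubb5 (377 and 656 FPKM), broadly expressed isotypes, had the largest ratios, while Tubb4a (3.07 and 1.40 FPKM), a low-level isotype named after its value was seen, was the lower one. Tubulin genes are near-identical over long stretches, so their separate values are uncertain.

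Partners of the transport motors had medians near or below that of all genes. Of 13 measured kinesin-1 light chains and cargo adaptors none was past 1.5-fold higher and 1 was past it lower, where 3.69% of protein-coding genes lay, with a median log2 ratio of -0.21. That 1 was Klc4, a light chain (10.6 and 6.26 FPKM), followed by Mapk8ip3, the JIP3 adaptor (54.8 and 42.4 FPKM), and Arl8a, a small GTPase of lysosome transport (27.2 and 21.5 FPKM). Klc1, the most abundant light chain, stood at 71.7 and 61.0 FPKM and Klc2 at 15.6 and 12.7 FPKM, beside the level Kif5b that they bind. Of 22 measured genes of cytoplasmic dynein and dynactin, the minus-end transport machine, 1 was past 1.5-fold higher and none lower, a count near the background of 7.01%, with a median log2 ratio of 0.02. The dynein heavy chain Dync1h1 was at 41.6 and 37.5 FPKM. The largest ratios were those of the light chains Dynll1 (140 and 236 FPKM), the one past 1.5-fold, and Dynll2 (55.6 and 78.5 FPKM), and of Nde1, a dynein regulator with a role in mitosis (38.6 and 50.7 FPKM).

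**Figure D4:**
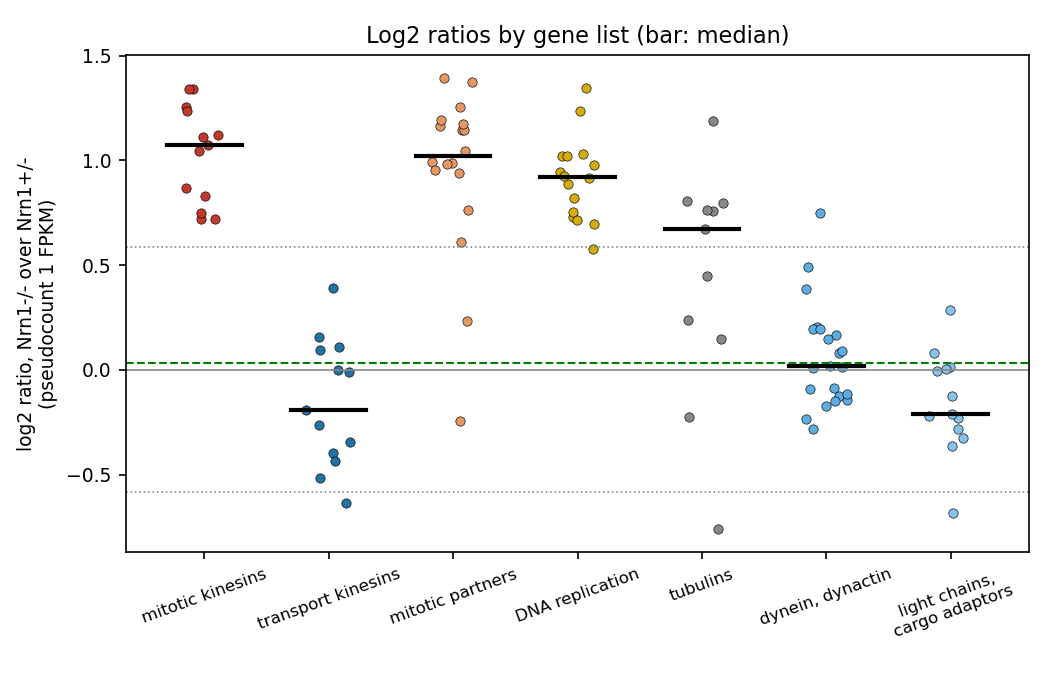
Log2 ratio of Nrn1-/- over Nrn1+/- with a pseudocount of 1 FPKM for each gene of 7 lists, with the list median as a black bar, 1.5-fold as dotted lines and the median of all protein-coding genes (0.04) as a dashed line. Mitotic kinesins, their partners and replication genes have medians of 1.08, 1.02 and 0.92, while transport kinesins, dynein genes and cargo adaptors lie around or below 0.

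**Figure D5:**
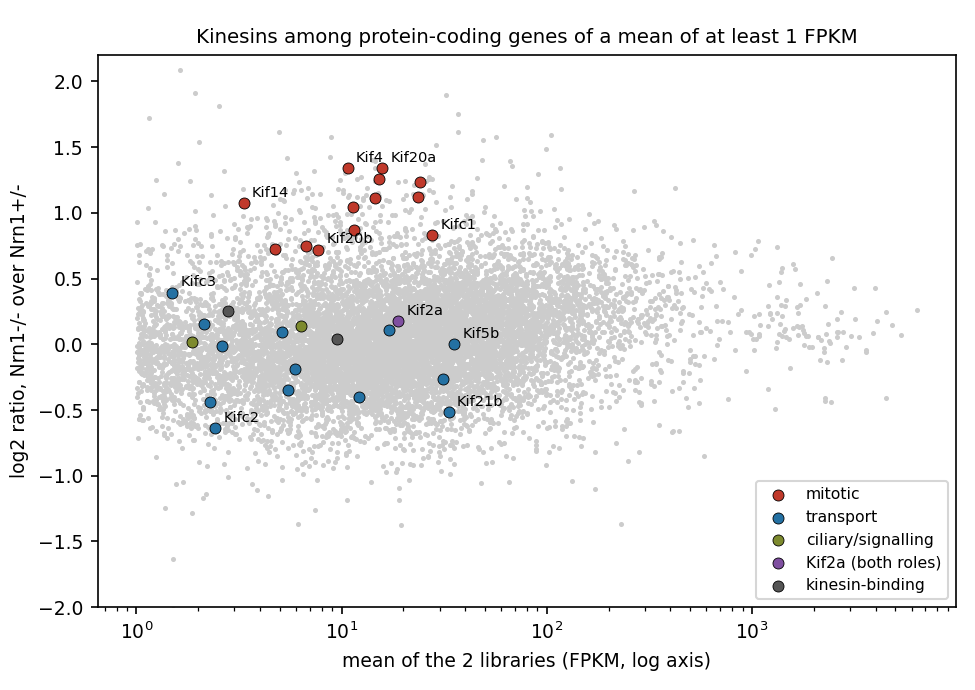
Log2 ratio against mean level (FPKM, log axis) for the 10695 protein-coding genes (grey, the most extreme cropped) and the 31 kinesins by role. The mitotic kinesins lie towards the upper edge of the grey cloud at means of 3.33 to 27.6 FPKM, levels that the transport kinesins share.

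All 13 measured mitotic kinesins stayed above 0 on the log2 scale under each of the 3 other scalings and after centring, but the number past 1.5-fold was 9 when the sum over all rows was made equal in both libraries, which lowers the median of all protein-coding log2 ratios by 0.27. Under that scaling 5 transport kinesins were at least 1.5-fold lower, while 1653 of all 10695 protein-coding genes were lower and 276 higher. Kif1c, Kif16b, Kif5c, Kif24, Kif2a, Kif7 and Kif1bp turned from slightly positive to negative there, and Kif5b went from 0.00 to -0.29. Markers of other cell types were low. The 5 B cell markers, all higher in the null library, summed to 5.64 and 7.27 FPKM, and 6 myeloid markers, 2 higher and 4 lower, to 7.94 and 6.26 FPKM. The 4 dendritic cell markers summed to 0.379 and 0.486 FPKM with Siglech at 0 in both, and 4 NK and CD8 T cell markers, 1 higher and 3 lower, to 6.91 and 5.22 FPKM. Csf1r was listed at 0 in the null library. Their part in the kinesin differences was not tested.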

How the data were processed

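Poly(A) RNA libraries of sorted cells were prepared with NEBNext Ultra reagents, per the labels' protocols. The deposited values are FPKM per gene, made by the authors. The file headers give no unit, so it was taken from the values and the tool list. Per the submitters' processing notes, that list holds FastQC, TopHat, Cuffdiff and Cuffnorm, with the builds mm10 and GRCm38. No source used here states tool roles, versions, filters or how libraries were scaled, and 3 other scalings and a centring were therefore tried.

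Rows of 1 symbol were summed, and log2 ratios used a pseudocount of 1 FPKM, which understates low genes, with a filter at a mean of 1 FPKM (10695 protein-coding genes). Low values of single-transcript genes over 1 kb stepped by 0.0192 (Nrn1+/-) and 0.0251 (Nrn1-/-) FPKM times kilobase, within 0.1 of whole multiples for 95.9% and 95.7% of 1884 and 1848 genes, after 210 bases were taken off each transcript. Fragment numbers follow from these steps and the longest coding transcript, and are approximate. Without molecular identifiers, PCR copies are counted as fragments. No count test was run, since the values are not counts. Positions came from GENCODE M21 and promoters from RefSeq, both on GRCm38. The ratio script was checked on simulated data. Python 3.11.15, numpy 2.4.6, pandas 2.3.3 and matplotlib 3.10.9 were used.

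The members, lists and rules were chosen with earlier results of these data known. Every kinesin that reached the filter was named, the 3 highest below it, and for each partner list the 3 largest absolute log2 ratios with Cenpe, Klc1, Klc2, Dync1h1 and Mki67.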

Additional observations from a re-analysis of the deposited data

How the results depend on the processing

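No paired analysis was possible because each genotype has 1 library without a replicate number, and for the same reason no library could be left out. Of the 13 measured mitotic kinesins, 8 passed a threshold of 2-fold in place of 1.5-fold. The median log2 ratio of the 13 was 1.17 with a pseudocount of 0.01 FPKM and 0.85 with all rows rescaled to an equal sum. Transport kinesins past 1.5-fold higher numbered 1 with a pseudocount of 0.1 or 0.01 FPKM. Those past 1.5-fold lower numbered 2 with either pseudocount, 0 with a filter at 5 FPKM and 2 with upper-quartile scaling. They numbered 5 with all rows and 3 with protein-coding rows rescaled. At a threshold of 2-fold no transport kinesin was lower. The transport median was -0.01 with no filter, -0.46 and -0.32 with all or protein-coding rows rescaled, and -0.01 with ciliary kinesins added. The difference of mitotic and transport medians, 1.27, was 1.39 with either smaller pseudocount and 1.09 with no filter or with ciliary kinesins added. Without the highest member of each list the ratio of mitotic to transport FPKM was 0.696 in the Nrn1+/- and 1.9 in the Nrn1-/- library.

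Protein-coding genes past 1.5-fold, 750 higher and 395 lower, became 482 and 680 with upper-quartile scaling, 276 and 1653 with all rows rescaled, 499 and 857 with protein-coding rows rescaled, and 129 and 28 at 2-fold. With pseudocounts of 0.1 and 0.01 the higher genes were 910 and 928 and the lower genes 597 and 626. With a filter at 5 FPKM, 620 of 8718 genes were higher and 291 lower. The share of higher genes among those called was 65.5% as reported and 41.5%, 14.3% and 36.8% with these 3 scalings. Medians of mitotic partners were 1.13 and 1.14 with the smaller pseudocounts, and that of tubulins 0.45 with no filter. With upper-quartile scaling the medians were 0.92 for mitotic partners, 0.81 for replication, 0.56 for tubulins, -0.09 for dynein and -0.31 for cargo adaptors. With all rows rescaled they were 0.78, 0.64, 0.38, -0.26 and -0.48, and with protein-coding rows rescaled 0.80 for replication, 0.55 for tubulins, -0.10 for dynein and -0.34 for cargo adaptors. Each scaling multiplies all plain values of a library by the same factor, but with the fixed pseudocount the log2 ratios moved unequally. With protein-coding rows rescaled, Kif14 went from 1.08 to 1.09 and Kifc2 from -0.64 to -0.82. Of 239 values of single kinesins under these settings 72 moved beyond their counting interval and none past 1.5-fold changed direction. Of the 12 members under 1 FPKM, 8 had at most 6 estimated fragments in either library, where differences were not detectable.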
